A study of Arabidopsis thaliana with 44 samples.

Results

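Nitrate reduction was followed through 8 genes, chosen by locus: the nitrate reductase genes NIA1 (AT1G77760) and NIA2 (AT1G37130), the nitrite reductase gene NIR1 (AT2G15620), the siroheme gene UPM1 (AT5G40850), the glucose-6-phosphate dehydrogenase genes G6PD2 (AT5G13110) and G6PD3 (AT1G24280), and the ferredoxin NADP reductase genes RFNR1 (AT4G05390) and RFNR2 (AT1G30510). Each of the 8 had 1 probe set among the 27827 on the array, and none shared its values with another probe set. NIA1, NIA2, G6PD3 and RFNR2 lie on chromosome 1, NIR1 on chromosome 2, RFNR1 on chromosome 4, and UPM1 and G6PD2 on chromosome 5. RNA of mature dry Arabidopsis seed, taken just after harvest, was hybridised to 44 arrays, which cover 3 near isogenic lines (NILs), each grown in 5 conditions, or 15 groups. The lines, NIL DOG1, NIL DOG3 and NIL DOG6, are named for DELAY OF GERMINATION loci, at which natural accessions differ in seed dormancy, and no further line was analysed here. The conditions were 20C and 15C, low nitrate (N0), low light (LL) and standard light (SL). By the study's design 20C was the control for both 15C and N0, and SL was the control for LL. There were 2 arrays of NIL DOG3 under N0 and 3 of every other group, each from seed of 4 bulked plants. Total RNA is the molecule the labels give, but their extraction text covers polysome RNA too, and which fraction reached these arrays could not be settled.

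In plant cells nitrate reductase, a cytosolic enzyme that carries a molybdenum cofactor, turns nitrate into nitrite. Nitrite enters the plastid, where nitrite reductase turns it into ammonium on a siroheme group with electrons from ferredoxin. In plastids without photosynthesis those electrons come from NADPH: glucose-6-phosphate dehydrogenase makes NADPH in the first step of the oxidative pentose phosphate pathway, and root-type ferredoxin NADP reductase passes its electrons to ferredoxin. UPM1 encodes uroporphyrinogen III methyltransferase, the enzyme that commits a tetrapyrrole to siroheme. Genes of this chain are known for their response to nitrate in Arabidopsis seedlings.

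Levels are given as log2 values on the array scale, and a level of one probe set cannot be set against that of another. The median of all values was 4.28. NIA1, NIR1, UPM1, G6PD2 and RFNR1 lay above it on every array. NIA2 lay below it on all 44 arrays, with a mean of 2.61, so its values hold little signal above that of the dimmer probe sets. G6PD3 and RFNR2 lay on both sides of it, below on 24 of 44 arrays each. The 10 dry seed markers (cruciferins, albumins, an oleosin and LEA genes) had array means of 11.37 to 12.01 and stood above the median of all values in every condition, while array means were 3.32 to 4.01 for 6 leaf markers and 3.06 to 3.79 for 5 seed coat markers. In whole seed, fewer cells of a type and less RNA per cell cannot be told apart.

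Plants kept at 15C were set against plants at 20C to see how cooler growth bore on seed transcripts. Of the 8 genes 7 were lower at 15C and none was higher, where 12.8% of all probe sets were lower and 12.5% higher at an adjusted p under 0.05. The median change of the 8 was -1.01, and that of all probe sets was 0.005. Low nitrate gave 6 of the 8 lower and none higher, against a background of 6.07% lower and 5.86% higher, with a median change of -1.01 beside 0.008 over all probe sets. The 8 genes were chosen with earlier results of these data known, so their counts beside the background, here and below, describe them and test nothing. Both comparisons use the same 20C arrays, so their values stand side by side below and are not independent. Changes are log2 differences, condition minus control, averaged over the 3 lines with their SE, and p-values are from limma with Benjamini-Hochberg adjustment over all probe sets.

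**Figure D1:**
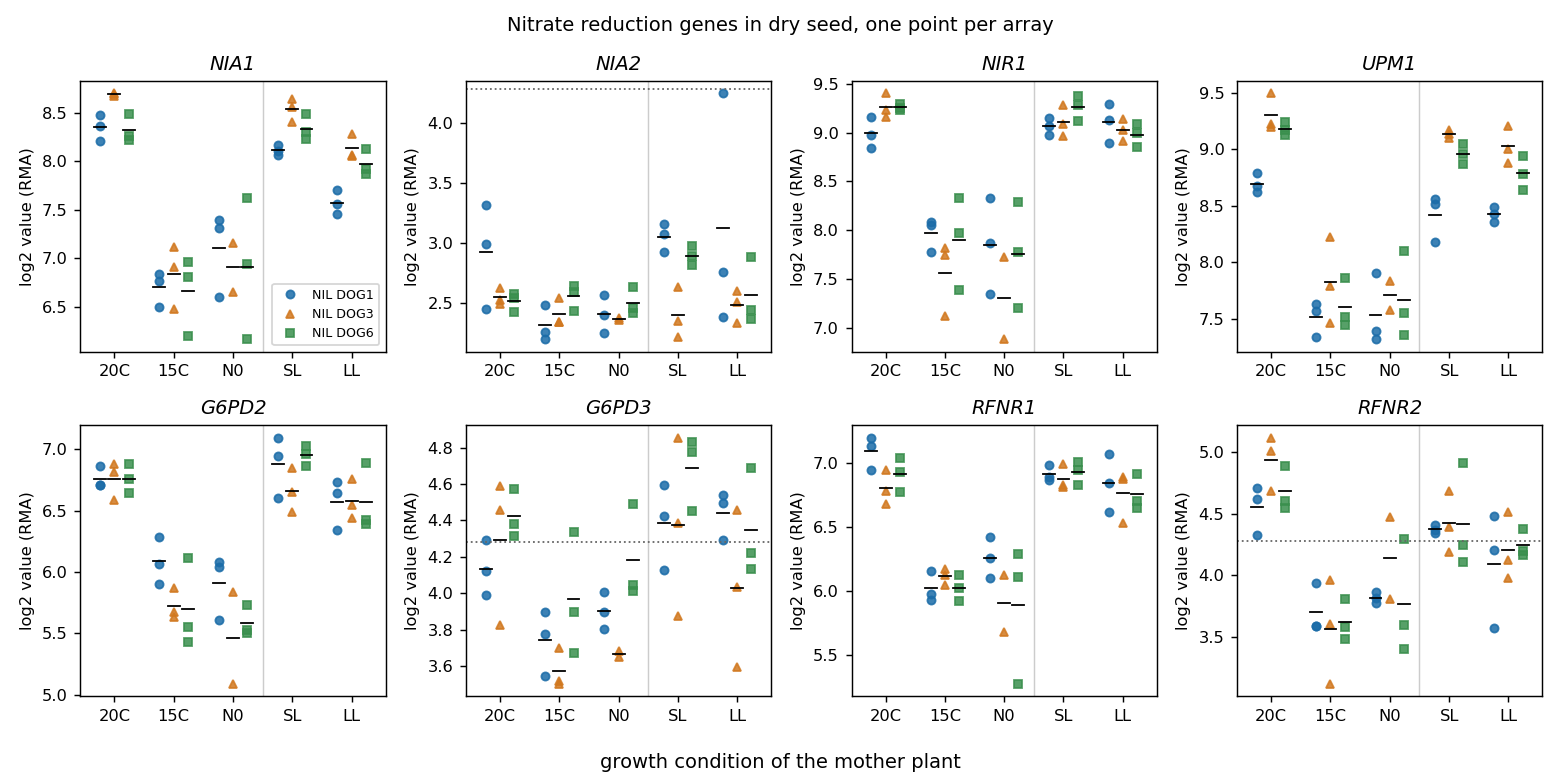
Log2 values (RMA) of the 8 genes on each of the 44 arrays, by growth condition of the mother plant, with 1 symbol per line, a bar at each group's mean and a dotted line at the median of all values (4.28) where it falls inside the axis. NIA1, NIR1, UPM1, G6PD2 and RFNR1 sit lower at 15C and N0 than at 20C with no shared values, and all NIA2 points lie under the dotted line.

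NIA1 showed the largest fall of the 8 at 15C. At 20C its values were 8.21, 8.36 and 8.48 in NIL DOG1, 8.67, 8.70 and 8.70 in NIL DOG3, and 8.22, 8.27 and 8.49 in NIL DOG6. At 15C they were 6.50, 6.83 and 6.76 in NIL DOG1, 6.47, 6.91 and 7.11 in NIL DOG3, and 6.96, 6.20 and 6.81 in NIL DOG6. Under N0 they were 7.39, 6.59 and 7.31 in NIL DOG1, 6.65 and 7.16 in NIL DOG3, and 7.62, 6.16 and 6.94 in NIL DOG6. The lowest 20C array thus stood above the highest array of either other condition, and the N0 arrays of a line lay further apart than its 20C arrays. NIA1 was 3.31-fold lower at 15C (-1.73 ± 0.13, adjusted p = 3.19e-12), the sixth largest fall of all probe sets, and 2.8-fold lower under N0 (-1.48 ± 0.14, adjusted p = 7.16e-10). The other nitrate reductase gene, NIA2, had values of 2.43 to 3.32 (median 2.54) at 20C, 2.2 to 2.64 (median 2.44) at 15C and 2.25 to 2.64 (median 2.41) under N0, and these overlapped. Its changes of -0.24 ± 0.14 at 15C (95% interval -0.52 to 0.05, adjusted p = 0.257) and -0.24 ± 0.15 under N0 (adjusted p = 0.378) did not pass, at a level where a change would be hard to measure.

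NIR1, whose product reduces the nitrite that nitrate reductase makes, spanned 8.85 to 9.4 (median 9.23) on the 9 arrays of 20C. It spanned 7.12 to 8.34 (median 7.82) at 15C and 6.89 to 8.34 (median 7.75) on the 8 arrays of N0. No array of 15C or N0 reached the lowest array of 20C. The fall was 2.56-fold at 15C (-1.36 ± 0.13, adjusted p = 9.99e-10) and 2.89-fold under N0 (-1.53 ± 0.14, adjusted p = 6.30e-10), where it was the largest of the 8.

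UPM1, which supplies the siroheme pathway that NIR1 needs, had values of 8.63 to 9.5 (median 9.17) at 20C, 7.34 to 8.22 (median 7.57) at 15C and 7.32 to 8.1 (median 7.56) under N0. Again the arrays of 20C stood apart from the rest. The fall was nearly the same in both conditions, 2.66-fold at 15C (-1.41 ± 0.10, adjusted p = 3.00e-13) and 2.68-fold under N0 (-1.42 ± 0.10, adjusted p = 3.17e-12).

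Of the genes that supply reductant, G6PD2 had values of 6.58 to 6.88 (median 6.76) at 20C, 5.43 to 6.28 (median 5.87) at 15C and 5.09 to 6.08 (median 5.67) under N0. It was 1.9-fold lower at 15C (-0.92 ± 0.10, adjusted p = 9.31e-09) and 2.15-fold lower under N0 (-1.11 ± 0.11, adjusted p = 1.46e-09), with no overlap of arrays. G6PD3, which encodes a related plastid enzyme, had values of 3.83 to 4.59 (median 4.32) at 20C, 3.5 to 4.34 (median 3.7) at 15C and 3.65 to 4.49 (median 3.95) under N0. Here the arrays overlapped. The fall at 15C was 1.44-fold (-0.52 ± 0.12, adjusted p = 0.00140), and the change under N0 did not pass (-0.37 ± 0.13, 95% interval -0.63 to -0.1, adjusted p = 0.0592). The N0 change had the same size and an adjusted p of 0.0394 when only the N0 and 20C arrays entered the fit, 0.0327 without dim probe sets, 0.0439 with arrays centred on their medians and 0.0396 with array weights. It did not pass with a replicate block, a random block, robust moderation of the variance or a covariate for pollen markers. The largest adjusted p among these fits was 0.0693.

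RFNR1, which hands electrons from NADPH to ferredoxin in root-type plastids, had values of 6.68 to 7.2 (median 6.94) at 20C, 5.92 to 6.17 (median 6.05) at 15C and 5.28 to 6.42 (median 6.12) under N0. All arrays of 15C and N0 were below all of 20C. The fall was 1.85-fold at 15C (-0.89 ± 0.09, adjusted p = 3.93e-09) and 1.89-fold under N0 (-0.92 ± 0.10, adjusted p = 1.19e-08). RFNR2, its paralogue, had values of 4.33 to 5.12 (median 4.68) at 20C, 3.12 to 3.97 (median 3.59) at 15C and 3.4 to 4.47 (median 3.81) under N0. The 15C arrays did not reach those of 20C, but an N0 array did. RFNR2 was 2.13-fold lower at 15C (-1.09 ± 0.13, adjusted p = 7.59e-08) and 1.76-fold lower under N0 (-0.82 ± 0.14, adjusted p = 6.01e-05). Without the arrays numbered 2, RFNR2 changed under N0 by -0.59 and did not pass (adjusted p = 0.119).

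Across the 8, the 9 arrays of 15C lay below the 9 of 20C without overlap for 6 genes, where 2.43% of all probe sets did so. The 8 arrays of N0 lay below those of 20C for 5 genes, against 1.11% of all probe sets. Of 8 pollen markers, genes known for their expression in pollen, 2 were called lower at 15C, where all 8 changed by -0.95 to -0.45 (median -0.54). None passed under N0, where their median change was 0.07 and the smallest of their adjusted p was 0.760 with limma. Of the 10 dry seed markers 3, the albumin genes SESA1, SESA2 and SESA4, were lower and none was higher in each condition, by -0.39 to -0.27 at 15C and -0.69 to -0.58 under N0. Of 6 leaf markers LHCB1.3 was higher at 15C (0.51 ± 0.15) and RBCS1A lower under N0 (-0.62 ± 0.10), and of 5 seed coat markers TT10 was higher at 15C (0.84 ± 0.09). With a pollen index, the mean centred level of the pollen markers on each array, as a covariate, no call of a member changed at 15C or N0 against 20C. The part of the dry seed, leaf and seed coat markers in the members' changes was not tested. Array means of the pollen markers were 5.8 to 6.99 at 20C, 5.47 to 6.39 at 15C and 5.85 to 7.17 under N0.

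**Figure D2:**
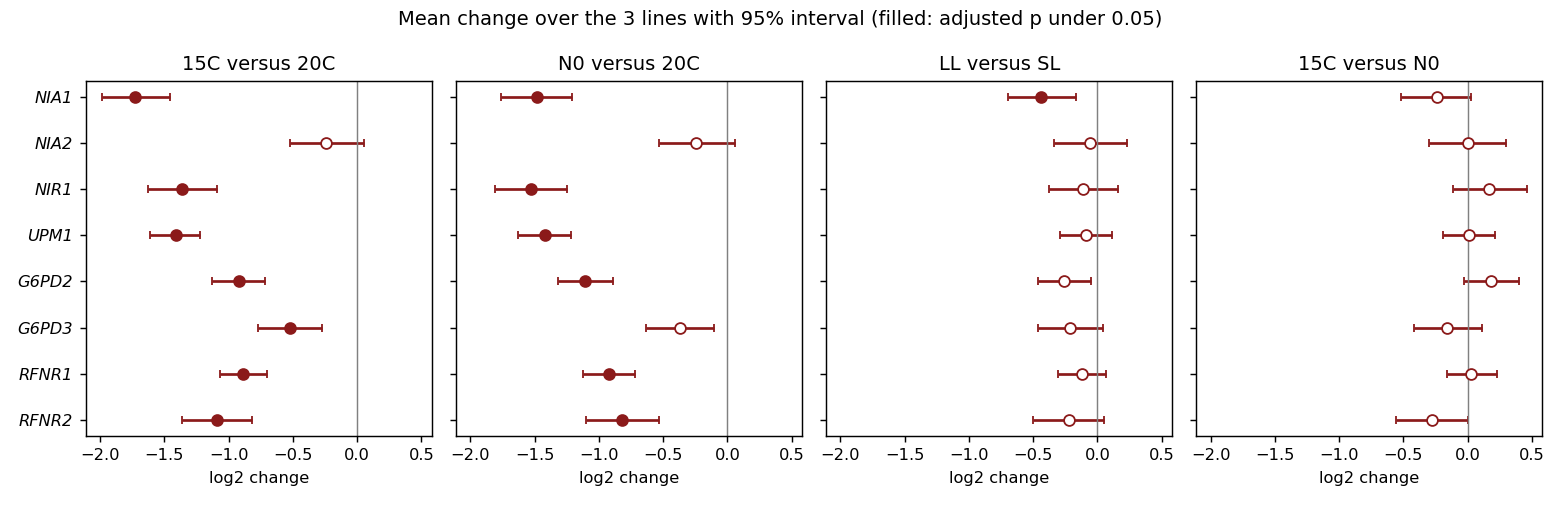
Mean log2 change over the 3 lines for each of the 8 genes, with its 95% interval, in 4 comparisons, filled where the adjusted p is under 0.05. At 15C 7 genes and under N0 6 genes are filled and left of 0, under LL only NIA1 is, and between 15C and N0 none is.

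Setting 15C against N0 leaves out the 20C arrays. None of the 8 differed between them at an adjusted p under 0.05 with limma, where 12.9% of all probe sets did, and none had an unadjusted p under 0.05 either. The smallest unadjusted p belonged to RFNR2, which stood 0.28 ± 0.14 lower at 15C on the log2 scale (-0.28, 95% interval -0.56 to 0, adjusted p = 0.218). NIA1 differed by -0.24 ± 0.14 (95% interval -0.52 to 0.03, adjusted p = 0.289). It passed, lower at 15C, without N0 array 2 of NIL DOG6 (-0.37, adjusted p = 0.0350) and without all arrays numbered 2 (-0.50, adjusted p = 0.0277). The difference was, for G6PD2, 0.18 ± 0.11 (-0.03 to 0.4, adjusted p = 0.307) and, for NIR1, 0.17 ± 0.14 (-0.11 to 0.46, adjusted p = 0.519). For UPM1 the difference was 0.01 ± 0.10 with an interval of -0.19 to 0.21, and for RFNR1 it was 0.03 ± 0.10 with an interval of -0.16 to 0.23. The intervals of G6PD3 (-0.42 to 0.11) and NIA2 (-0.3 to 0.3) included 0 too. Since these intervals reach as far as -0.56 log2 units, equal levels are not shown.

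Low light gave a smaller picture. Of the 8 genes 1 was lower under LL than under SL and none was higher, where 3.63% of all probe sets were lower and 2.73% higher. The median change was -0.16, and 0.014 over all probe sets. The gene was NIA1. Its SL values were 8.17, 8.11 and 8.06 in NIL DOG1, 8.41, 8.64 and 8.56 in NIL DOG3, and 8.48, 8.23 and 8.30 in NIL DOG6. Its LL values were 7.45, 7.70 and 7.56 in NIL DOG1, 8.28, 8.06 and 8.05 in NIL DOG3, and 7.87, 8.12 and 7.92 in NIL DOG6. Inside each line every LL array lay below every SL array, while the pooled arrays overlapped. In single lines 7.89%, 5.85% and 9.36% of all probe sets lay lower in this way. NIA1 was 1.35-fold lower under LL (-0.44 ± 0.13, 95% interval -0.7 to -0.17, adjusted p = 0.0385), and within single lines it did not pass (adjusted p = 0.352 in NIL DOG1, 0.709 in NIL DOG3 and 0.452 in NIL DOG6). The call did not hold with arrays centred on their medians (-0.42, adjusted p = 0.0554), and it was lost on leaving out any of 12 of the 18 LL and SL arrays, with changes of -0.46 to -0.41 over all 18. It held only without array 2 or 3 of NIL DOG1, 1 of NIL DOG3 or 2 of NIL DOG6 under LL, or without array 1 of NIL DOG3 or 2 of NIL DOG6 under SL.

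Pollen markers moved with the same contrast, with 7 of 8 lower under LL, from AGP23 at -2.01 ± 0.35 to AGP11 at -1.04 ± 0.21 among those called. Their array means were 4.62 to 5.92 under LL and 5.63 to 8.33 under SL, and the 3 highest, 8.33, 7.99 and 7.48, were the SL arrays numbered 2, one in each line. With a pollen index as a covariate the NIA1 change was -0.5 (adjusted p = 0.183), and without the SL arrays numbered 2 it was -0.44 (adjusted p = 0.124). The remaining genes did not pass under LL. G6PD2 came closest at -0.26 ± 0.10 (95% interval -0.46 to -0.05, adjusted p = 0.139). RFNR2 changed by -0.22 ± 0.13 (-0.5 to 0.05), G6PD3 by -0.21 ± 0.12 (-0.46 to 0.04) and RFNR1 by -0.12 ± 0.09 (-0.31 to 0.07). NIR1, at -0.11 ± 0.13 (-0.38 to 0.16), UPM1, at -0.09 ± 0.10 (-0.29 to 0.11), and NIA2, at -0.06 ± 0.14 (-0.34 to 0.23), had the smallest changes.

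Ordered by level, the conditions fell into a similar sequence for most of the genes. NIA1 ran from 20C (8.45) over SL (8.33), LL (7.89) and N0 (6.97) to 15C (6.73). Of its neighbouring steps, SL to LL (adjusted p = 0.0385) and LL to N0 (adjusted p = 2.64e-06) passed, while 20C to SL and N0 to 15C did not. For NIR1, UPM1, G6PD2 and RFNR1 the only neighbouring step that passed was the one from LL down to 15C, with adjusted p = 6.08e-09, 4.50e-11, 5.02e-07 and 1.03e-07. For G6PD3 only the step from LL to N0 did (adjusted p = 0.0420), and for RFNR2 and NIA2 none did. The controls of the experiments, 20C and SL, differed at no member, and at 0.0252% of all probe sets. Group means spanned 2.03 log2 units (4.1-fold) for NIA1, a span wider than that of 98.7% of probe sets. The span was 1.96 for NIR1, 1.79 for UPM1, 1.48 for G6PD2, 1.37 for RFNR2, 1.2 for RFNR1, 1.11 for G6PD3 and 0.81 for NIA2.

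Within single lines, NIA1, NIR1, UPM1, G6PD2 and RFNR1 were each called lower at 15C in 3 of 3 lines and under N0 in 3 of 3 lines. RFNR2 was called lower in 3 of 3 lines at 15C and in 1 of 3, NIL DOG6, under N0. Its N0 arrays lay below its 20C arrays in each line. So did 10.3%, 14.0% and 9.29% of all probe sets in NIL DOG1, NIL DOG3 and NIL DOG6. When single arrays of NIL DOG1 were left out, the 15C call of RFNR2 in that line was lost for 4 of 6 arrays. That of G6PD2 was lost for 2 of 6. Which line passed for RFNR2 under N0 depended on the fit. With array weights NIL DOG1 passed (-0.76, adjusted p = 0.0299) and NIL DOG6 did not (-0.69, adjusted p = 0.0697). NIL DOG1 also passed with only the arrays compared and without dim probe sets (adjusted p = 0.0479 and 0.0475), and NIL DOG6 did not pass without its 20C array 2 (-0.81), N0 array 2 (-0.83) or N0 array 3 (-0.73). G6PD3 had a mean below that of 20C in 3 of 3 lines at 15C and in 3 of 3 under N0. It was called lower in 1 of 3 lines at 15C, NIL DOG3 (-0.71 ± 0.21, adjusted p = 0.0285, and 0.0892 when only the arrays compared entered the fit), and in none under N0. NIA2 passed in none, but its change at 15C in NIL DOG1, -0.61 ± 0.24, passed with array weights (-0.67, adjusted p = 0.0172) and without 20C array 1 of that line (-0.84, adjusted p = 0.0447). The background of lower calls at 15C was 4.40% in NIL DOG1, 4.24% in NIL DOG3 and 5.97% in NIL DOG6. Under N0 it was 1.18%, 1.57% and 2.45%, and under LL, where none of the 8 passed in any line, 0.579%, 0.0144% and 2.50% of all probe sets were called in either direction. When only the arrays compared entered the fit, the genes lower under N0 numbered 3, 3 and 2 in these lines in place of 5, 5 and 6. The SE given here pool the spread of all groups, while that of NIA1 and NIR1 was wider under N0. Their pooled SD within lines was 0.56 and 0.53 under N0, and 0.11 and 0.12 at 20C. The part of this spread in the lost calls was not tested.

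**Figure D3:**
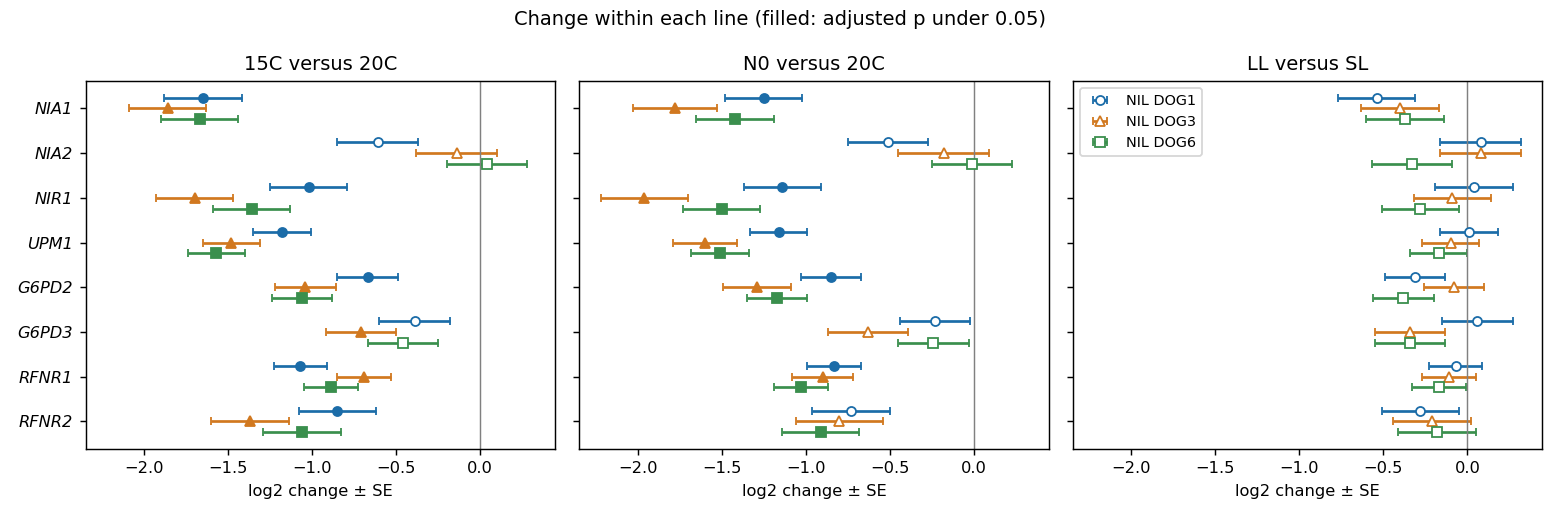
Log2 change with its SE of each of the 8 genes within each line, in 3 comparisons, filled where the adjusted p is under 0.05. NIR1 fell by 1.02 in NIL DOG1 and 1.70 in NIL DOG3 at 15C, and the lines' changes keep 1 direction for the 5 genes filled throughout both left panels.

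The lines' own changes were as follows. NIR1 changed at 15C by -1.02 ± 0.23 in NIL DOG1, -1.7 ± 0.23 in NIL DOG3 and -1.36 ± 0.23 in NIL DOG6. Under N0 its changes were -1.14 ± 0.23, -1.96 ± 0.26 and -1.5 ± 0.23. NIA1 ranged at 15C from -1.65 ± 0.23 in NIL DOG1 to -1.86 ± 0.23 in NIL DOG3, and under N0 from -1.25 ± 0.23 to -1.78 ± 0.25 in the same lines. A moderated F test of whether the response differed between the lines passed for none of the 8, at adjusted p of 0.863 or more, and passed for 0.0395% of all probe sets at 15C, 0.00% under N0 and 0.00359% under LL. No member had an unadjusted p under 0.05 in it, the lowest being that of NIR1 under N0 (0.0774, adjusted p = 0.905). A difference in response between the lines is thus not shown, nor is an equal response.

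Levels averaged over the 5 conditions differed between lines for 2 of the 8 genes. UPM1 was higher in NIL DOG3 than in NIL DOG1 by 0.48 ± 0.08 (1.4-fold, adjusted p = 1.51e-05) and higher in NIL DOG6 than in NIL DOG1 by 0.32 ± 0.07 (1.25-fold, adjusted p = 0.00309). At 20C its arrays gave 8.68, 8.63 and 8.79 in NIL DOG1, 9.23, 9.50 and 9.19 in NIL DOG3, and 9.17, 9.13 and 9.24 in NIL DOG6. How often NIL DOG1 lies below both other lines without overlap was not counted over all probe sets, so no such separation is read here. At NIR1 the differences of NIL DOG1 at 20C did not pass (adjusted p = 0.768 against NIL DOG3 and 0.830 against NIL DOG6 with limma). Between NIL DOG3 and NIL DOG1 the UPM1 difference was 0.61 ± 0.17 at 20C (adjusted p = 0.0379), 0.60 ± 0.17 under LL (adjusted p = 0.0346) and 0.71 ± 0.17 under SL (adjusted p = 0.00962). It was 0.31 ± 0.17 at 15C and 0.17 ± 0.19 under N0, where it did not pass. Between NIL DOG6 and NIL DOG1 it passed in no single condition, at 0.54 ± 0.17 under SL (adjusted p = 0.0999), 0.48 ± 0.17 at 20C (adjusted p = 0.190), 0.36 ± 0.17 under LL, 0.13 ± 0.17 under N0 and 0.09 ± 0.17 at 15C. G6PD3 was higher in NIL DOG6 than in NIL DOG3 by 0.34 ± 0.10 (1.26-fold, adjusted p = 0.0228), a call lost when only the arrays of both lines entered the fit (adjusted p = 0.0593). For each pair of lines 1 of the 8 genes was called and 7 were not, where 11.1% of all probe sets were called between NIL DOG3 and NIL DOG1, 8.25% between NIL DOG6 and NIL DOG1 and 9.61% between NIL DOG6 and NIL DOG3, so these counts are near the background.

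Differences between near isogenic lines can extend over a chromosome segment, and so the measured genes next to each member were read as well, 20 on each side in locus order. Around UPM1, 20 of 40 neighbours (50%) were called between NIL DOG3 and NIL DOG1, 9 higher and 11 lower, and 17 (42.5%) between NIL DOG6 and NIL DOG1. Only 1 of the 40 was called between NIL DOG6 and NIL DOG3. Around G6PD3, 12 neighbours (30%) were called between NIL DOG3 and NIL DOG1 and 11 (27.5%) between NIL DOG6 and NIL DOG3, with changes as large as -5.46 and 5.49, but 1 between NIL DOG6 and NIL DOG1. RFNR2, which did not differ between lines, had 11 called neighbours (27.5%) in the comparisons of NIL DOG3 with NIL DOG1 and of NIL DOG6 with NIL DOG3. Whether sequence differences under the probes take part in these differences between lines was not tested.

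**Figure D4:**
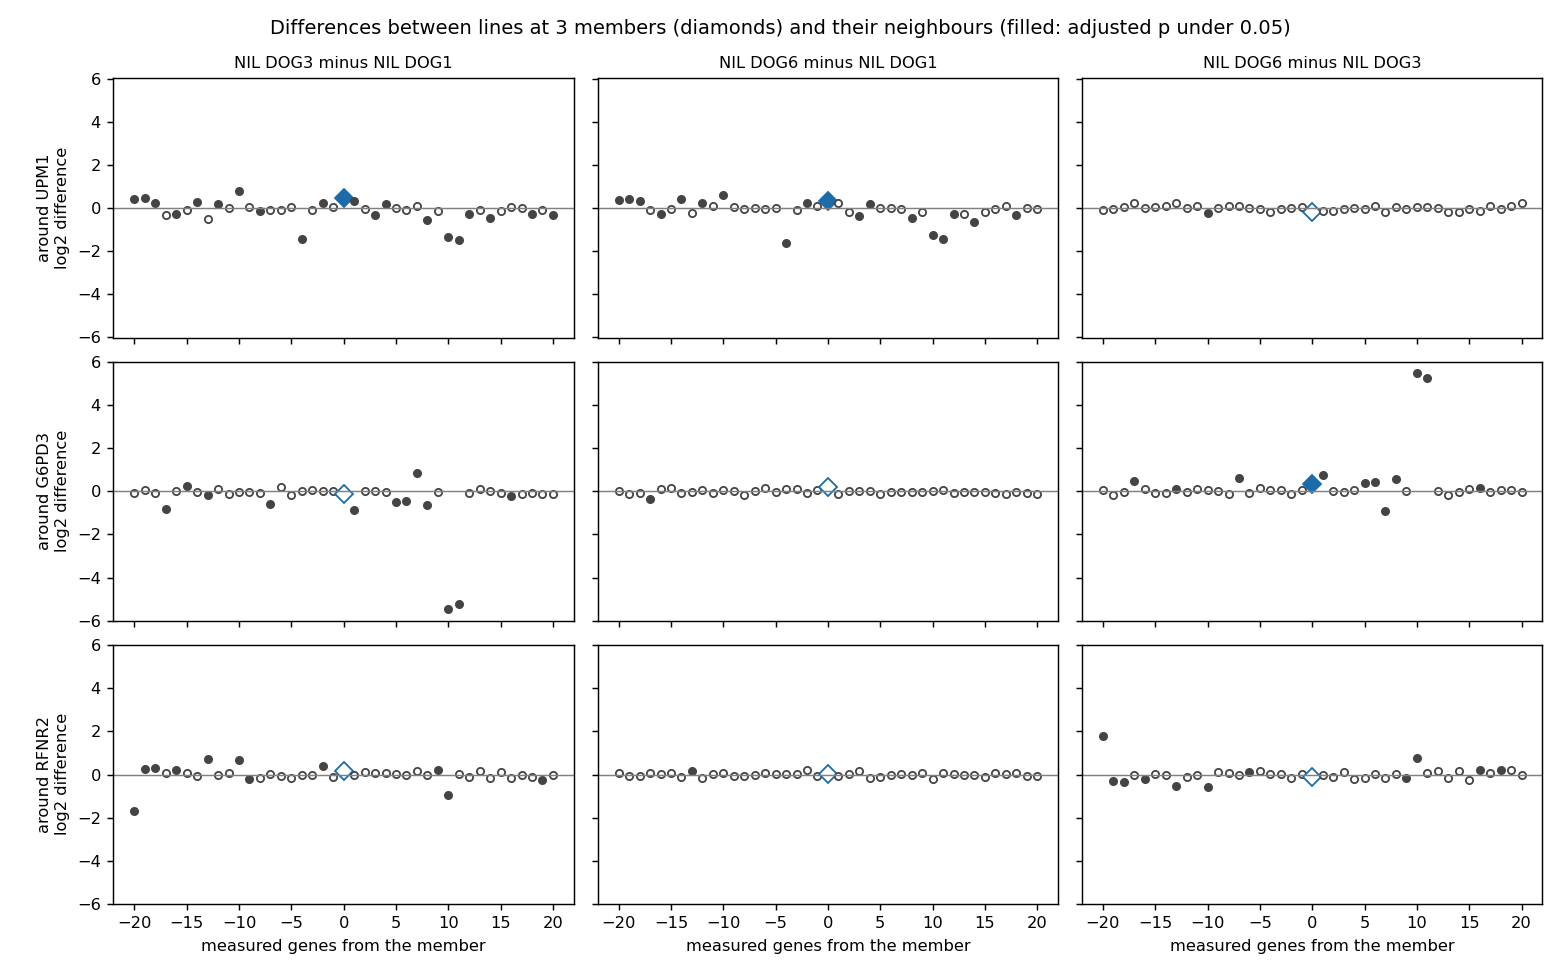
Log2 difference between lines at UPM1, G6PD3 and RFNR2 (diamonds at 0) and at the 20 measured genes on each side, by rank from the member, filled where the adjusted p is under 0.05. Called neighbours of UPM1 are frequent in both comparisons with NIL DOG1 (20 and 17 of 40) and rare (1 of 40) between NIL DOG6 and NIL DOG3.

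The rest of the pathway was read from lists of genes with known roles. In the counts below a gene that fell or rose is one called at an adjusted p under 0.05. Beside these counts, 25.3% of all probe sets were called in either direction at 15C and 11.9% under N0. FD3, the root-type ferredoxin that RFNR reduces, fell 1.6-fold at 15C (-0.68 ± 0.06, adjusted p = 5.99e-11) and 1.63-fold under N0 (-0.70 ± 0.06, adjusted p = 2.25e-10), without overlap of arrays. In its list of 3, AT5G62720, a locus without a name in the gene table, went from 6.13 at 20C to 4.4 at 15C (-1.73 ± 0.18, adjusted p = 1.87e-09) and to 4.64 under N0 (-1.48 ± 0.18, adjusted p = 2.54e-07), and AT3G47980 did not pass. At the last step of siroheme synthesis SIRB, which inserts the iron, fell by 0.31 on the log2 scale at 15C (adjusted p = 0.000349) and changed by -0.08 under N0 without passing. SIR, the sulfite reductase that also carries siroheme, rose by 0.24 at 15C (adjusted p = 0.000306) and by 0.21 under N0 (adjusted p = 0.00466).

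Of 9 genes of molybdenum cofactor synthesis and molybdate transport, 4 fell and 1 rose at 15C, and 4 fell under N0. The gene that rose was AT2G43760 (0.20 ± 0.06), which was lower under N0 (-0.26 ± 0.06). MOT2, a molybdate transporter gene, changed by -0.49 ± 0.06 and -0.42 ± 0.06, CNX1 by -0.37 ± 0.06 and -0.29 ± 0.06, and CNX2 by -0.26 ± 0.05 and -0.39 ± 0.06 at 15C and N0, and CNX5 fell at 15C (-0.29 ± 0.08). Of 7 genes of other molybdenum enzymes, 1 rose and 1 fell at 15C, a share near that of all probe sets, and none passed under N0 with limma. The aldehyde oxidase gene AAO4 rose (0.55 ± 0.16, adjusted p = 0.00739), and AAO1, of the same family, fell (-0.17 ± 0.04).

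Of 11 further genes in the oxidative pentose phosphate list, 3 fell and none rose in either condition. AT5G41670 changed by -1.24 ± 0.16 at 15C (adjusted p = 3.46e-07) and -1.49 ± 0.17 under N0 (adjusted p = 6.94e-08), and AT1G64190 by -0.92 ± 0.10 in both (adjusted p = 7.12e-09 and 4.50e-08). Neither locus has a name in the gene table. The other was G6PD1, which changed by -0.41 ± 0.09 and -0.26 ± 0.09. The median changes of the list, -0.02 at 15C and -0.05 under N0, were close to those of all probe sets. Of 6 leaf-type ferredoxin reductase and ferredoxin genes, 1 (FDC2) rose and 1 (FDC1) fell in each condition, and the median changes were 0.08 and -0.04. Under LL none of these lists had a gene that rose, and 1 gene fell in the list of other molybdenum enzymes (AAO1, -0.16 ± 0.04) and in the leaf-type list (FDC1, -0.22 ± 0.06). SIRB, SIR, MOT2, AT2G43760, CNX1, CNX2, CNX5, AAO1, G6PD1, FDC1 and FDC2 lie outside the size rule for named genes and were picked after their values were seen.

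**Figure D5:**
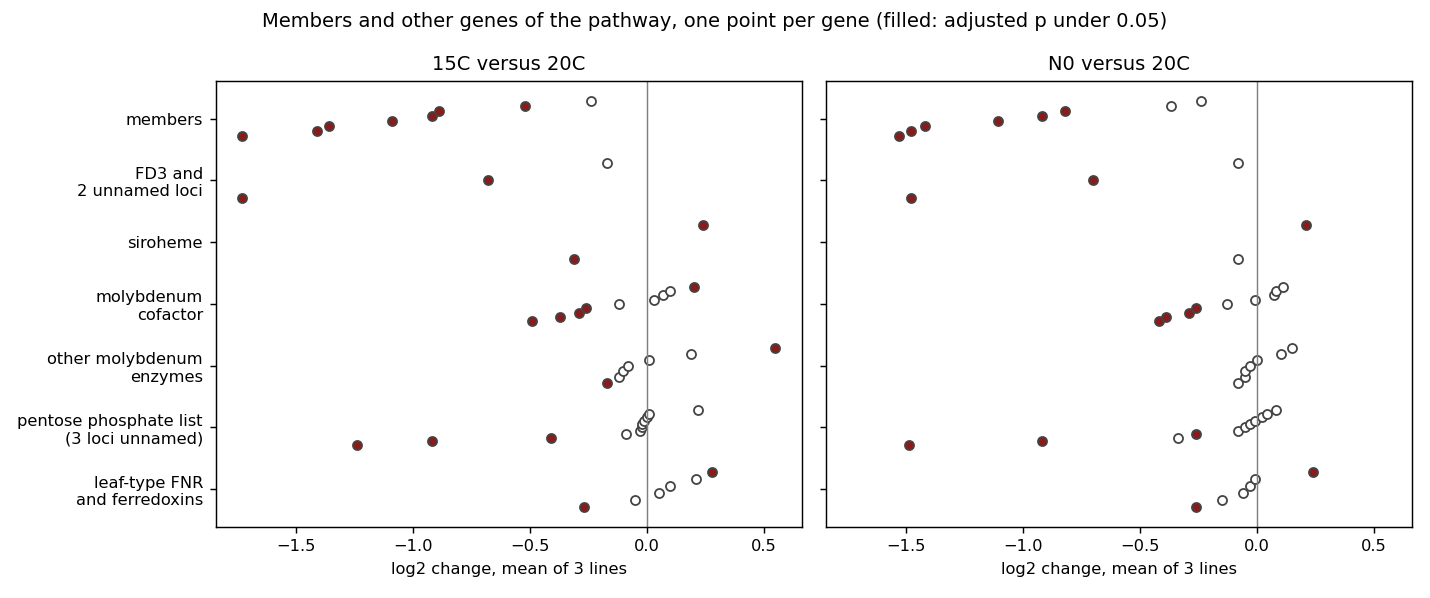
Mean log2 change over the 3 lines of the 8 nitrate reduction genes and of 6 further lists of the pathway at 15C and under N0, with 1 point per gene, filled where the adjusted p is under 0.05. The members' medians are -1.01 in both panels, and most genes of the molybdenum, pentose phosphate and leaf-type lists lie near 0.

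Among themselves the members differed in how closely they followed each other. Over the 15 group means, which share arrays and conditions and so serve as a description only, Pearson's r was 0.97 between NIR1 and G6PD2, 0.96 between NIA1 and UPM1, 0.96 between G6PD2 and RFNR1 and 0.92 between NIA1 and NIR1. NIA1 and NIA2, which encode the same enzyme, had r = 0.39. NIA2 lay below the median of all values on all 44 arrays, and its highest group mean (3.13, NIL DOG1 under LL) includes a single value of 4.24. A low r of NIA2 thus cannot show that the 2 genes are regulated differently. With the group means taken out, over the 44 arrays, r was 0.82 between NIA1 and NIR1, 0.79 between NIR1 and UPM1 and 0.69 between NIA1 and UPM1. It was 0.33 between NIA1 and G6PD2 and -0.09 between NIA1 and NIA2. The r of G6PD2, G6PD3, RFNR1 or RFNR2 with NIA1, NIR1 or UPM1 was at most 0.5. The values among NIA1, NIR1 and UPM1 draw mostly on N0 and 15C, where arrays of a group differed most for these genes. Their pooled SD within lines was 0.56 and 0.32 for NIA1, 0.53 and 0.37 for NIR1 and 0.33 and 0.27 for UPM1. In the other conditions it was 0.11 to 0.13, 0.12 to 0.15 and 0.11 to 0.13. Arrays differed most for NIA2 under LL (0.6) and at 20C (0.26), and for G6PD3 under SL (0.34) and LL (0.31).

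By the same measure over 15 groups, the probe sets most like each member were listed among those whose group means span at least 1 log2 unit. NIA1 was closest to OBP1, a Dof transcription factor gene (r = 0.965), to UPM1 (0.959) and to AT4G00940 (0.948), which the gene table also calls DOF4.1. UPM1 was closest to AT5G62900 (0.978), AT4G00940 (0.97) and NIA1. NIR1 was closest to AT3G60750 (0.981), listed as transketolase 1, to G6PD2 (0.972) and to the protein kinase gene CIPK3 (0.969). G6PD2 had NIR1, RFNR1 (0.962) and the homeobox gene WOX2 (0.952) nearest, and RFNR1 had AT5G41670 (0.964), G6PD2 and CIPK3 (0.961). RFNR2 had NIA1 (0.922), AT3G58610 (0.892) and OBP1 (0.889). The nearest to G6PD3 were AT5G52780 (0.893), AT5G62720 (0.879) and APC8 (0.865). The nearest to NIA2 were PRXCB (0.919), CYP79B2 (0.832) and MEE26 (0.826), so no gene was nearest to NIA2 and to another member. The order for NIA2 rests on its dim values and is a weak description.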

How the data were processed

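The authors deposited a table of log2 values, for which the submitters' processing notes name RMA, and the labels name a Nugen labelling protocol. No RMA version, array annotation or genome build is stated in the sources used here, so no coordinates are printed. RMA includes quantile normalization, under which a change of total RNA per seed would not be seen. Array medians were 4.22 to 4.39, correlations within a group 0.987 to 0.994, and no arrays were identical (0 pairs). The number of arrays limits the precision (29 residual degrees of freedom, median residual SD 0.199). The labels call the replicates biological.

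Means of the 15 groups were fitted together with limma 3.58.1 in R 4.3.3, with no filter and no block, two-sided, with calls at an adjusted p under 0.05 (Benjamini-Hochberg over all probe sets). The steps were tested on simulated data. Members and lists were chosen with earlier results of these data known. The rule for named genes took all 8 members, called genes of the other lists with a change of at least 0.5, and the 3 probe sets most correlated with each member. Gene names come from a TAIR10.1 table that held 27241 of the loci. A planned motif search in promoters was not run, and no sequences are shown.

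Same-numbered arrays of a condition and its control in one line had correlations of -0.142 to 0.242 after removal of the group means, over 0.1 in 5 of 26 pairs, and those of 2 lines in one condition had -0.139 to 0.398, over 0.1 in 12 of 43. Not every pair passed 0.1, so the numbers were not taken to pair samples, a rule that does not show the arrays to be independent. The 3 SL arrays numbered 2 did deviate together (0.179 to 0.398). Between lines, some pairs of SL arrays numbered 1 (0.124) and 3 (0.176 and 0.2) also passed 0.1. So did some pairs of LL arrays numbered 1 (0.14 and 0.213) and 3 (0.271). The main fit treats all these arrays as independent. Alternatives were a replicate block, a random block, only the arrays compared, dim probe sets left out, median-centred arrays, array weights, robust moderation of the variance, a pollen covariate, leaving out arrays, and leaving out 3 SL arrays, the last chosen after seeing the data.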

Additional observations from a re-analysis of the deposited data

How the results depend on the processing

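Under every alternative at 15C and N0, averaged over the lines, NIA1, NIR1, UPM1, G6PD2 and RFNR1 stayed lower than at 20C with adjusted p under 0.05, arrays left out included, and no called change of a member turned its sign in any alternative. Of the 8 genes 7 were lower at 15C in all of them, and 5 to 7 were under N0. With the replicate block, and with centred arrays, 1 gene was lower in NIL DOG3 than in NIL DOG1 (NIA2, -0.33 and -0.35) in place of 0, and the block moved no other count by over 1.5 times. The random block had a consensus correlation of 0.027. The filter on dim probe sets kept 15060 and left out NIA2. With only the arrays compared in the fit, the genes lower under N0 were 3, 3 and 2 in NIL DOG1, NIL DOG3 and NIL DOG6 in place of 5, 5 and 6, those higher in NIL DOG3 than in NIL DOG1 were 2 in place of 1, and those higher in NIL DOG6 than in NIL DOG3 were 0 in place of 1. The count under LL was 0 in place of 1 with centred arrays, with the pollen covariate and without the SL arrays numbered 2. The causes were not tested.

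With single arrays or all arrays of a number left out, genes lower in NIL DOG1 ranged from 3 to 6 at 15C and from 2 to 5 under N0, and in NIL DOG3 under N0 from 3 to 6, with a median change of -1.44 to -0.75. Leaving out an N0 array of NIL DOG3 leaves 1 there, which is assumed to vary like the other groups. Without the N0 array numbered 2 alone, the count in NIL DOG1 under N0 was 3. Counts of 0 to 1 were found for genes lower under LL, lower at 15C than under N0, lower in NIL DOG3 than in NIL DOG1, lower or higher in NIL DOG6 than in NIL DOG3, and higher in NIL DOG6 than in NIL DOG1. The UPM1 difference between NIL DOG6 and NIL DOG1 lost its call without the arrays numbered 2 (adjusted p = 0.0643) or 3 (adjusted p = 0.0551), and the G6PD3 difference between NIL DOG6 and NIL DOG3 without those numbered 1 (adjusted p = 0.215) or 3 (adjusted p = 0.207).

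All changes of sign were in differences that had not passed. Between 15C and N0, leaving out arrays gave -0.07 to 0.07 for NIA2, -0.07 to 0.32 for NIR1, -0.06 to 0.15 for UPM1 and -0.09 to 0.16 for RFNR1. There NIA2 was -0.03 and UPM1 -0.02 with centred arrays, NIA2 was 0, UPM1 -0.05 and RFNR1 -0.07 with array weights, and NIA2 was -0.01 with the pollen covariate. For NIL DOG6 minus NIL DOG1 the ranges were -0.03 to 0.17 (NIA1), -0.02 to 0.09 (NIR1) and -0.01 to 0.08 (RFNR2), and for NIL DOG6 minus NIL DOG3 -0.02 to 0.19 (G6PD2), -0.07 to 0.07 (RFNR1) and -0.26 to 0.04 (RFNR2). In NIL DOG6, NIA2 ranged from -0.02 to 0.13 at 15C and from -0.12 to 0.04 under N0. Under LL, NIA2 ranged from -0.29 to 0.08 over the lines. In NIL DOG1 the LL ranges were -0.55 to 0.5 (NIA2), -0.05 to 0.14 (NIR1), -0.11 to 0.08 (UPM1), -0.12 to 0.17 (G6PD3) and -0.19 to 0.08 (RFNR1), with UPM1 at -0.01 when centred, and NIA2 at -0.25 and RFNR1 at 0.01 with array weights. In NIL DOG3 they were -0.02 to 0.2 (NIA2; -0.01 without the SL arrays numbered 2), -0.17 to 0.03 (G6PD2) and -0.2 to 0.01 (RFNR1), and in NIL DOG6 -0.33 to 0.07 (RFNR2).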

Other observations

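Under N0, NIA1, NIR1, UPM1, G6PD2, RFNR1 and RFNR2 varied more between arrays of a line than most probe sets, and NIA2 and G6PD3 did not. This was noticed after the values were seen. The pooled SD within lines was 0.56 for NIA1 and 0.53 for NIR1 under N0, wider than that of 99.2% and 98.9% of probe sets, and 0.11 and 0.12 at 20C, where the median over all probe sets was 0.19 and 0.18. For UPM1 it was 0.33 under N0, wider than that of 88.4% of probe sets, and 0.11 at 20C. For RFNR1, RFNR2 and G6PD2 it was 0.38, 0.36 and 0.3 under N0, wider than that of 94.2%, 92.8% and 83.9%. For G6PD3 it was 0.18 (47%). At 15C it was 0.32 for NIA1 and 0.37 for NIR1, wider than that of 91.4% and 95.9%, so their wide spread was not particular to N0. For NIA2 it was 0.12 under N0, wider than that of 22.5% of probe sets, and 0.26 at 20C. Under N0, where NIL DOG3 has 2 arrays, array 2 was the lowest of its line for NIA1, NIR1 and UPM1 in 3 of 3 lines. This held for 5.46% of all probe sets. NIA1 read 6.59, 6.65 and 6.16 on those arrays of NIL DOG1, NIL DOG3 and NIL DOG6, and NIR1 read 7.35, 6.89 and 7.21. Such a pattern was not particular to N0. Array 3 was lowest in 3 of 3 lines for NIR1, UPM1 and G6PD3 under SL and for NIR1 and RFNR2 under LL. Array 1 was so for NIA1 at 20C. The share of all probe sets was not counted for those conditions. The labels describe blocks of plants in the growth design but do not say that a number marks one, and the part of a block in this pattern was not tested.

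A single NIA2 value stood high, 4.24 in NIL DOG1 under LL, where the other arrays of that group read 2.75 and 2.38. The pooled SD of NIA2 within lines was 0.6 under LL, wider than that of 99.3% of probe sets.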
